A study of Homo sapiens with 6 samples.

Results

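The genes described here are 51 parts of the machinery that starts and copies DNA at replication origins and forks. They were chosen by name from the 58735 genes of the deposited table, with earlier results of these data known. All 51 names were found, each in 1 row. They were followed in 3 samples of HaCaT cells treated with dacomitinib for 48 h and in 3 control samples. HaCaT is a spontaneously immortalised human keratinocyte line, labelled wild type in both groups, and dacomitinib is a kinase inhibitor that binds EGFR and its relatives covalently. By the series' design text, treatment began at 70% confluence and 0.1% DMSO went to the experimental group. Neither a dose nor a vehicle for the controls is stated in the labels. The labels give no sign that replicates were grown as separate cultures. The p-values therefore reflect only how far these samples vary, and that variation may be technical.

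Each replication origin is marked by the origin recognition complex, ORC. With CDC6 and CDT1 it loads the MCM2-7 ring onto DNA, and geminin blocks CDT1 once S phase has begun. The kinase CDC7 with its partner DBF4, together with TOPBP1, MCM10, CDC45 and the GINS complex, turns the ring into an active helicase. Polymerases alpha, epsilon and delta, the sliding clamp PCNA and its loader RFC, the single-strand binder RPA and the nucleases and ligase that join Okazaki fragments then copy the DNA. In epidermis this machinery belongs to the dividing basal keratinocytes, in which EGFR signalling promotes growth, and many of its genes are textbook targets of E2F transcription factors.

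Levels are the deposited FPKM, that is fragments per deposited gene length, scaled between libraries by the authors in a way the labels do not state. The total by which they divided was 1.07 ± 0.0244 times the fragment sum with dacomitinib and 0.952 ± 0.00449 times in controls (SD, n = 3). Levels can be compared between genes per length only, and rankings between genes rest on the deposited lengths. A difference is the dacomitinib mean minus the control mean of log2(FPKM + 1), given with its standard error (SE). It comes from limma, fitted to the 13748 genes that averaged 1 FPKM or more, and a call is a Benjamini-Hochberg adjusted p below 0.05. Libraries held 15171200 to 16179273 fragments on genes with dacomitinib and 14960650 to 16166582 in controls. The 3 treated columns of the table were matched to dacomitinib by elimination, and every direction below rests on that. All 6 keratinocyte markers examined were above 1 FPKM on average, with sums of 817 to 982 FPKM with dacomitinib and 1058 to 1122 FPKM in controls. They did not move together: KRT5 (-0.34) and KRT14 (-0.87) were called lower and DSG3 (0.52) and COL17A1 (0.18) higher. TP63 and SFN were not called. Markers of other cell types summed to 1.00 to 1.96 FPKM with dacomitinib and 0.224 to 0.523 FPKM in controls for 6 fibroblast genes, of which COL1A2 and PDGFRA were at 0 in every library. The 4 endothelial genes summed to 10.6 to 13.5 FPKM with dacomitinib and 1.81 to 2.20 FPKM in controls, with KDR at 0 throughout; the 4 melanocyte genes, with TYR at 0 throughout, to 1.94 to 2.40 FPKM with dacomitinib and 1.08 to 1.42 FPKM in controls; and the 4 immune genes to 0.0125 to 0.143 FPKM with dacomitinib and 0.0632 to 0.170 FPKM in controls. Mitochondrial genes took 4.71 ± 0.162% of the fragments with dacomitinib and 7.83 ± 0.389% in controls (SD, n = 3). Of the markers of other cell types, 1 of 4 endothelial genes (CDH5) and 0 of the rest averaged 1 FPKM or more. CDH5 was called higher, at a mean of 10.0 FPKM with dacomitinib and 1.15 FPKM in controls, and made up most of the endothelial sum. The part of these shifts in the results was not tested.

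Of the 51 genes, 50 were tested and all 50 were called lower with dacomitinib (limma, adjusted p = 2.90e-07 to 0.0420), although ORC2 and ORC4 did not stay lower under every scaling between libraries: ORC2 turned higher with TPM, quantile normalization and voom, and ORC4 with TPM, without passing the test. MCM10, CLSPN and POLA2 averaged 0.730, 0.718 and 0.759 FPKM with dacomitinib. They passed the expression limit only through the controls, which limits their part in these counts and ranks. Of all 13748 genes tested, 34.8% were called lower. The median difference was -1.62 over the 50 members and -0.06 over all tested genes, of which 2.36% lay at or below the members' median. TPM moved the median of all tested genes to 0.23, a shift of 0.29, and that of the members to -1.52. A fall of at least 1 on the log2 scale was called in 40 members, against 6.81% of all tested genes, and a fall of at least 2 in 17 members, against 1.46%. In all 51 genes every dacomitinib library was below every control library, a pattern seen in 38.2% of the tested genes. In bulk RNA, fewer cells that express a gene and less of its RNA per cell cannot be told apart.

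**Figure D1:**
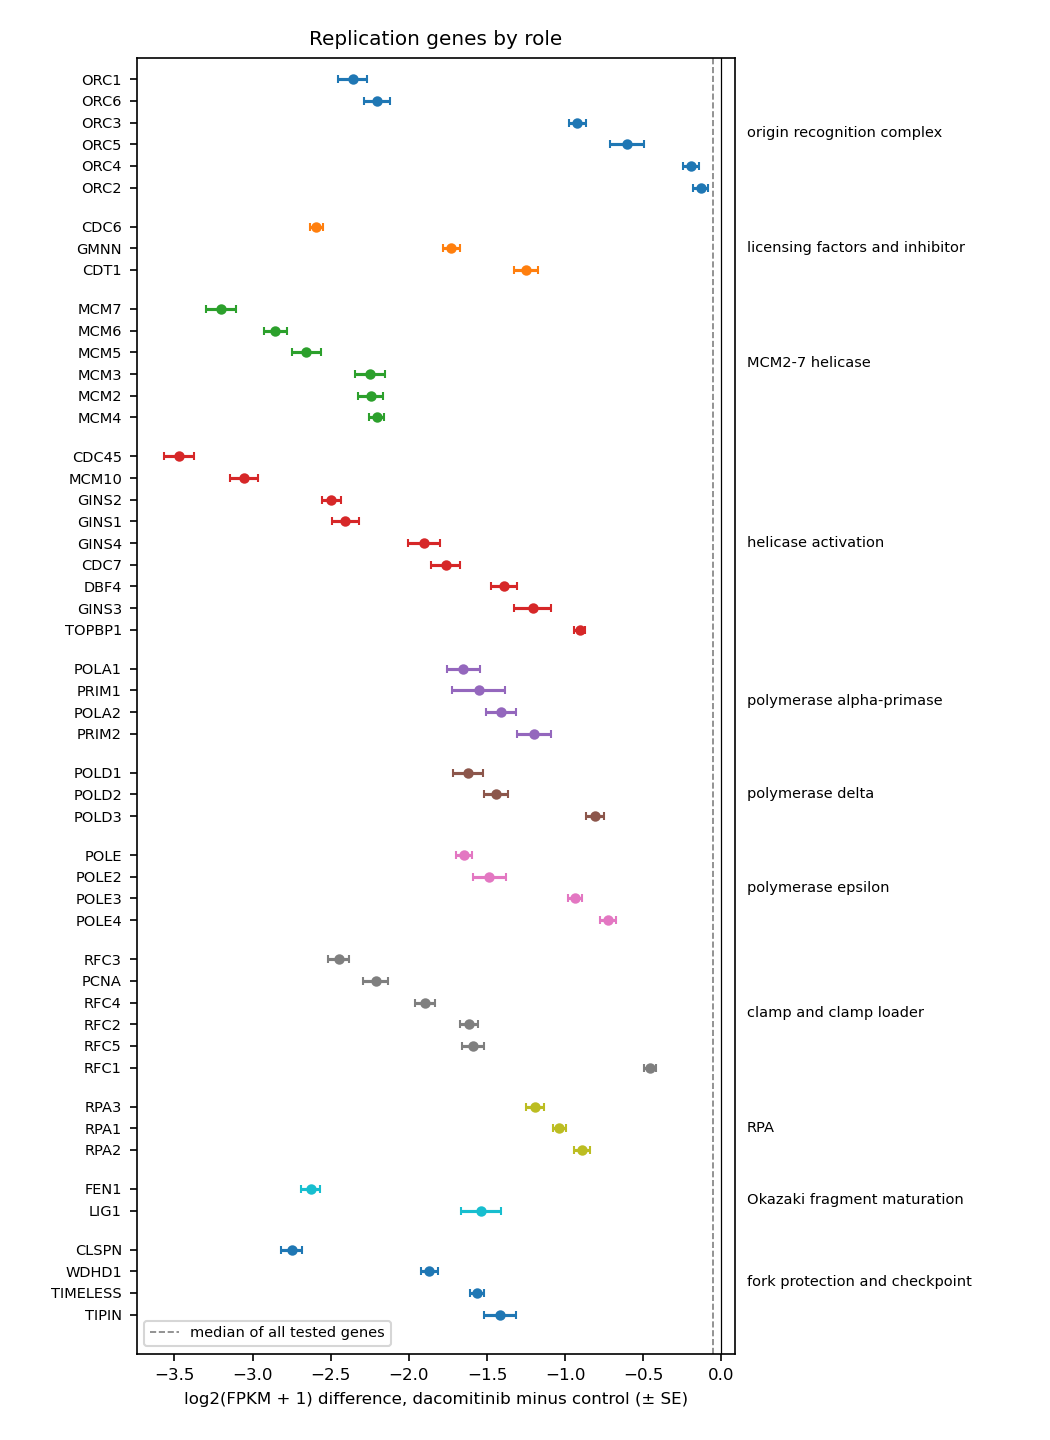
Difference in log2(FPKM + 1), dacomitinib minus control, with its SE for the 50 tested genes, grouped by role and ordered by size within a role. All points lie left of 0, from -3.47 for CDC45 to -0.13 for ORC2, whose sign, like that of ORC4, depends on the scaling (with TPM both are above 0); the dashed line is the median of all tested genes.

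Members differed widely in how much RNA was left. Mean FPKM with dacomitinib was below 50% of the control mean in 42 of the 51 genes, below 25% in 25 and below 10% in 5. The share of all tested genes below these limits was not computed, so the counts only describe the members. The 5 were MCM10, CDC45, CLSPN, RNASEH2A and MCM7. RNASEH2A was below the expression limit and rests on 7 fragments with dacomitinib and 65 in controls. Among all tested genes ranked by their fall, 8 members stood among the 100 largest falls, 17 among the 200 largest and 35 among the 500 largest. Across the 50 tested members the fold in FPKM was at most weakly related to the control level (Pearson r = -0.16, Spearman rho = -0.19; genes of the same 6 libraries, not independent replicates).

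**Figure D2:**
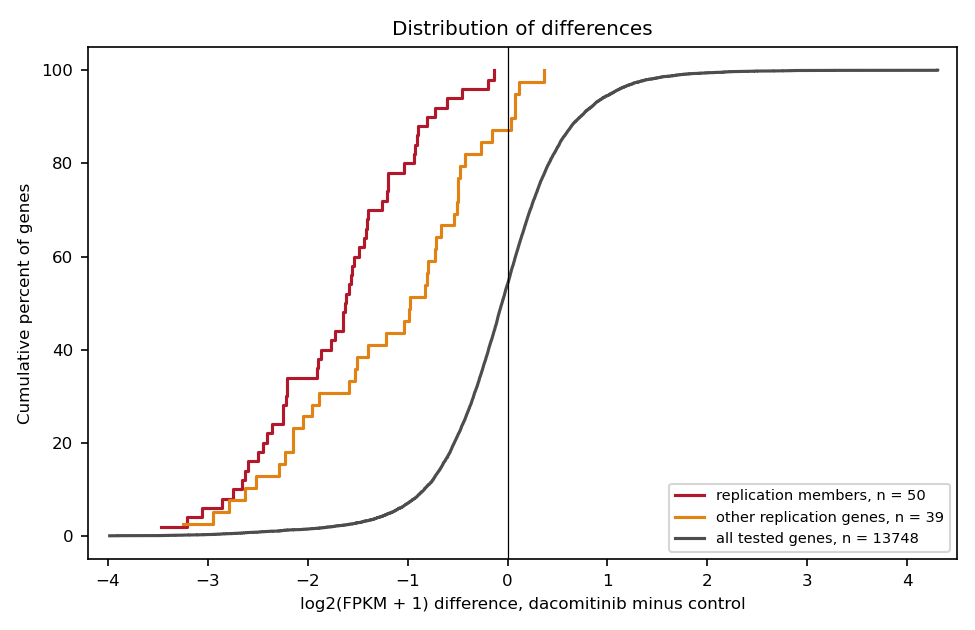
Cumulative percent of genes by log2(FPKM + 1) difference, dacomitinib minus control, for the 50 tested members, 39 tested genes of a second replication list and all 13748 tested genes. The members' curve, with a median of -1.62, lies left of that of all tested genes, with a median of -0.06.

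Promoter sequences were compared because the members fell together. RefSeq windows from 250 bases before to 50 after a start site (GRCh38.p14) were found for 45 of the 51 genes, 58 windows in all, some overlapping where a gene has several starts. MCM4, MCM5, GINS4, POLD3, RPA2 and RPA3 had none in the table used. An E2F-type motif, that is TTTCCCGC, TTTCGCGC, TTTGCCGC or TTTGGCGC on either strand, stood in 23 of the 58 windows (39.7%), against 3.31% of all 35116 windows and 4.99% of the 12675 windows of tested genes. The share was 9.93% among 866 windows of non-member genes that were called lower by at least 1 on the log2 scale. The CCAAT box, the letters bound by NF-Y, stood in 51.7% of the members' windows, 47.6% of those of non-member genes called lower by at least 1, 34.6% of all windows and 35.2% of those of tested genes. Its share in the members was thus near that in other genes that fell. The letters TTTGAA, a CHR-type motif known from genes of mitosis, stood in 3.45% of the members' windows, 19.7% of those of the non-member genes called lower, 15.2% of all and 10.4% of those of tested genes. These are descriptions of letters, not of bound sites.

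Shown here are the 200 bases before the start site of 5 members, with E2F-type and CCAAT letters of either strand in capitals, for a helicase subunit, the clamp and a polymerase with E2F-type matches, and for MCM10 and ORC2, which have none and which lie at opposite ends of the members' falls. Adjoining capitals can hold overlapping matches, as in the pair of MCM6 stretches where matches on both strands share letters. Of the 200 bases, 41 of PCNA, 23 of POLE, 20 of ORC2, 4 of MCM10 and 0 of MCM6 lie in GENCODE release 29 exons. The E2F-type match of POLE lies among those 23. MCM6 (chr2:135876444-135876643, minus strand) had 4 E2F-type and 2 CCAAT matches, PCNA (chr20:5126623-5126822, minus strand) 1 and 3, POLE (chr12:132687343-132687542, minus strand) 1 and 2, MCM10 (chr10:13161358-13161557, plus strand) 0 and 2, and ORC2 (chr2:200963661-200963860, minus strand) 0 and 1.
MCM6: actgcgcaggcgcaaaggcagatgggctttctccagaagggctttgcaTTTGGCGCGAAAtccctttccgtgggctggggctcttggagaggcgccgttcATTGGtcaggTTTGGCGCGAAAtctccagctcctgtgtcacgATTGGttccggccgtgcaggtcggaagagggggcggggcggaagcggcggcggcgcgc
PCNA: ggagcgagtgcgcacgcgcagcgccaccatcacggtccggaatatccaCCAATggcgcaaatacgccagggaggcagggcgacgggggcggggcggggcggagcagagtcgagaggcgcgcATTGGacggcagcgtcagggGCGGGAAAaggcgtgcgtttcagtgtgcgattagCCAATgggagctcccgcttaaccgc
POLE: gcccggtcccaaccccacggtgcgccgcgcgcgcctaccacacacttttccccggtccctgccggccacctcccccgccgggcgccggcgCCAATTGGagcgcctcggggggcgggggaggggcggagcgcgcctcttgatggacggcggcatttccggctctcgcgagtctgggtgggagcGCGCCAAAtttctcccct
MCM10: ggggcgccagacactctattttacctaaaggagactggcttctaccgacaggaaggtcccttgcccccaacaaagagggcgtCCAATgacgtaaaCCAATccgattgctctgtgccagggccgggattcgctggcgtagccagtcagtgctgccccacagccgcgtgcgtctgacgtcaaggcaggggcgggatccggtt
ORC2: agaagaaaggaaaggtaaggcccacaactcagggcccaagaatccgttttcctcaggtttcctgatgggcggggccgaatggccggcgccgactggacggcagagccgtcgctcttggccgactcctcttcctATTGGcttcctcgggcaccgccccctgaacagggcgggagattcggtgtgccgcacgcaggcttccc

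**Figure D3:**
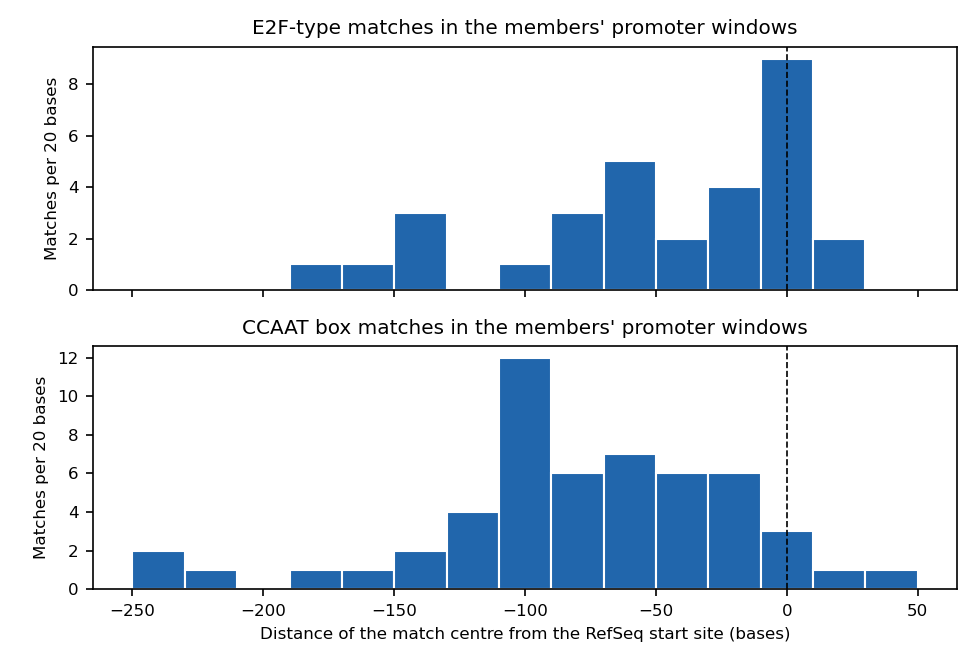
Number of E2F-type and CCAAT matches per 20 bases in the 58 promoter windows of the members, by the distance of the match centre from the RefSeq start site (dashed line). Of 31 E2F-type matches, 25 were centred within 100 bases of the start site. Overlapping matches on opposite strands, as in MCM6, MCM2 and TIPIN, are counted separately. Overlapping windows of a gene repeat some CCAAT matches, as in CDC45, but no E2F-type match. How many matches the extent of the windows alone would place there was not computed.

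The falls of members with and without an E2F-type match overlapped widely, and the 2 sets were not tested against each other. The 23 tested members with an E2F-type match had a median difference of -1.73, between -3.20 (MCM7) and -0.73 (POLE4). The 21 without had a median of -1.57, between -3.47 (CDC45) and -0.13 (ORC2, a sign that depends on the scaling). The members with the largest and the smallest fall were thus both among those without a match. ORC4, RFC1 and ORC5, with the next smallest falls among members that had a window, also lacked one. The median share of the control mean was 22.8% with a match and 30.2% without. Only the letters given above were searched, and other forms of E2F site were not looked for.

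The origin recognition complex was the most uneven of the complexes. ORC1, the subunit with ATPase activity that is lost and regained through the cell cycle in human cells, had 3.07, 3.00 and 2.37 FPKM with dacomitinib, against 17.1, 18.7 and 19.8 FPKM in controls. It fell by 2.36 (SE 0.09, limma adjusted p = 4.03e-06), to 15.2% of the control mean. ORC6, a subunit only loosely held by the human complex, had 1.36, 1.65 and 1.84 FPKM with dacomitinib and 11.3, 10.5 and 11.3 FPKM in controls, which is 14.7% of the control mean. In both genes the groups lay far apart. ORC3 and ORC5, subunits of the ORC core, fell to 48.8% and 61.3% of the control mean, with differences of -0.92 (SE 0.06) and -0.61 (SE 0.11).

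ORC2 and ORC4, also of the core, changed least. ORC2 (chromosome 2, 200908973 to 200963680, GRCh38) had 9.62, 9.62 and 9.27 FPKM with dacomitinib, against 10.5, 10.2 and 10.9 FPKM in controls. Its call, at -0.13 (SE 0.05, limma adjusted p = 0.0420), was lost when any of the 6 libraries was left out (adjusted p = 0.0580 to 0.125) and under 12 of the 16 alternatives in all, 3 of which gave the opposite sign. Before scaling, ORC2 held 2811 fragments over the dacomitinib libraries and 2718 over the controls. ORC4 had 4.32, 4.60 and 4.36 FPKM with dacomitinib and 5.24, 5.15 and 5.24 FPKM in controls. Its difference of -0.20 (SE 0.05, adjusted p = 0.0183) was 0.08 with TPM, and the call was lost under 6 alternatives, among them leaving out dacomitinib replicate 3 (adjusted p = 0.0582) or control replicate 1 (adjusted p = 0.0612). The ratio of ORC1 to ORC2, which scaling a library by 1 factor cannot change, was 0.319, 0.312 and 0.255 with dacomitinib and 1.63, 1.82 and 1.82 in controls. That of ORC6 to ORC2 was 0.141 to 0.199 with dacomitinib and 1.03 to 1.08 in controls. ORC1 was thus the most abundant ORC mRNA per length in every control library, whereas ORC2 was so in every dacomitinib library. The rank in controls rests on the gene lengths, 3157 bases for ORC1 and 5835 for ORC2. In fragments, the controls together held 2591 for ORC1 and 2718 for ORC2.

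**Figure D4:**
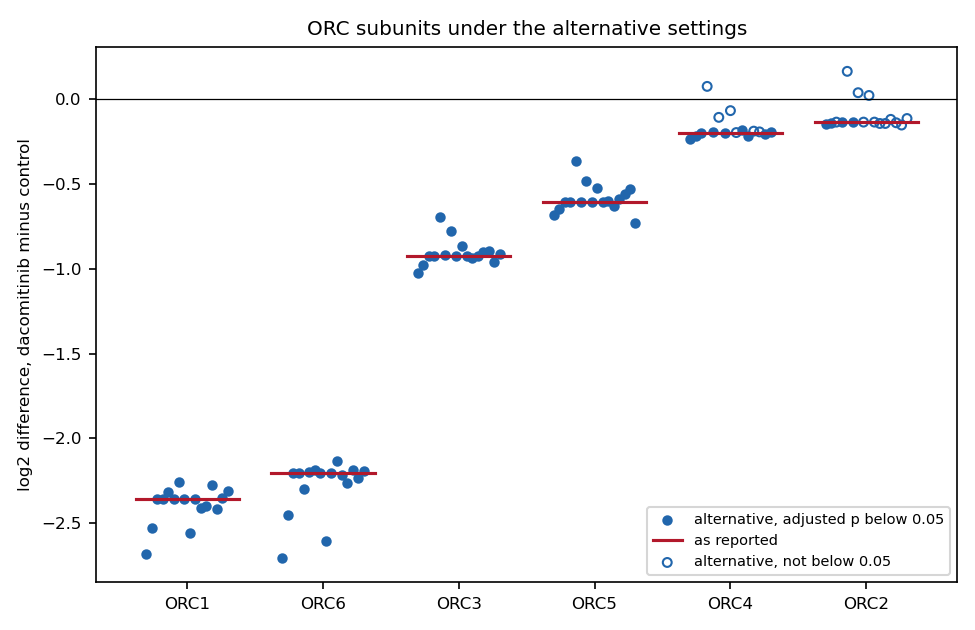
Difference of the 6 ORC subunits as reported (red lines) and under each alternative setting (points, filled where the adjusted p is below 0.05). ORC1, ORC6, ORC3 and ORC5 were called lower under every alternative, while ORC4 and ORC2 lie near 0, above it with TPM (0.08 and 0.17).

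The licensing factors fell by different amounts. CDC6, an ATPase that brings the MCM ring to ORC, had 3.79, 3.74 and 3.67 FPKM with dacomitinib, against 28.0, 27.6 and 27.1 FPKM in controls. Its difference of -2.59 (SE 0.04, limma adjusted p = 2.90e-07) had the lowest p of the members. CDT1, which works beside it, had 7.40, 6.20 and 6.87 FPKM with dacomitinib and 18.7, 16.2 and 17.98 FPKM in controls, a difference of -1.25 (SE 0.08). Its inhibitor geminin, GMNN, had 5.60, 5.94 and 5.24 FPKM with dacomitinib and 21.1, 21.2 and 20.1 FPKM in controls, a difference of -1.73 (SE 0.06). The difference was larger for the inhibitor than for its target. The ratio of CDT1 to GMNN was 1.32, 1.04 and 1.31 with dacomitinib and 0.882, 0.766 and 0.893 in controls, a log2 difference of 0.53 (exact permutation test, two-sided, p = 0.1, the smallest that 3 against 3 libraries allow). Per length, CDT1 exceeded GMNN in every dacomitinib library and in no control library. In summed fragments CDT1 was above GMNN in both groups, at 1155 and 702 with dacomitinib and 2599 and 2284 in controls.

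All 6 subunits of the MCM2-7 ring, the core of the replicative helicase, fell, with differences between -3.20 and -2.21. MCM7 had 8.87, 6.95 and 8.33 FPKM with dacomitinib, against 82.6, 75.4 and 88.7 FPKM in controls, and its difference was -3.20 (SE 0.10, limma adjusted p = 1.60e-06). MCM6 had 4.63, 4.16 and 4.90 FPKM with dacomitinib and 40.9, 36.2 and 40.5 FPKM in controls. MCM5 had 1.93, 1.94 and 1.77 FPKM with dacomitinib and 18.02, 14.8 and 18.8 FPKM in controls. These 3 subunits were left with 9.79% to 11.6% of the control mean. MCM2, MCM3 and MCM4 kept 19.1%, 20.02% and 20.5%. MCM3 had 15.97, 12.6 and 15.5 FPKM with dacomitinib and 71.3, 70.1 and 78.2 FPKM in controls. The unequal falls showed in the ratio of MCM7 to MCM3, 0.539 to 0.556 with dacomitinib and 1.08 to 1.16 in controls. Although the ring holds each subunit once, their mRNAs per length spanned 7.26-fold to 8.74-fold with dacomitinib and 4.59-fold to 5.09-fold in controls, lowest to highest. MCM5 was lowest in every library, and also in the summed fragments of each group (699 with dacomitinib, 5581 in controls). The 6 levels summed to 51.7, 47.7 and 52.4 FPKM with dacomitinib, against 318, 299 and 341 FPKM in controls.

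**Figure D5:**
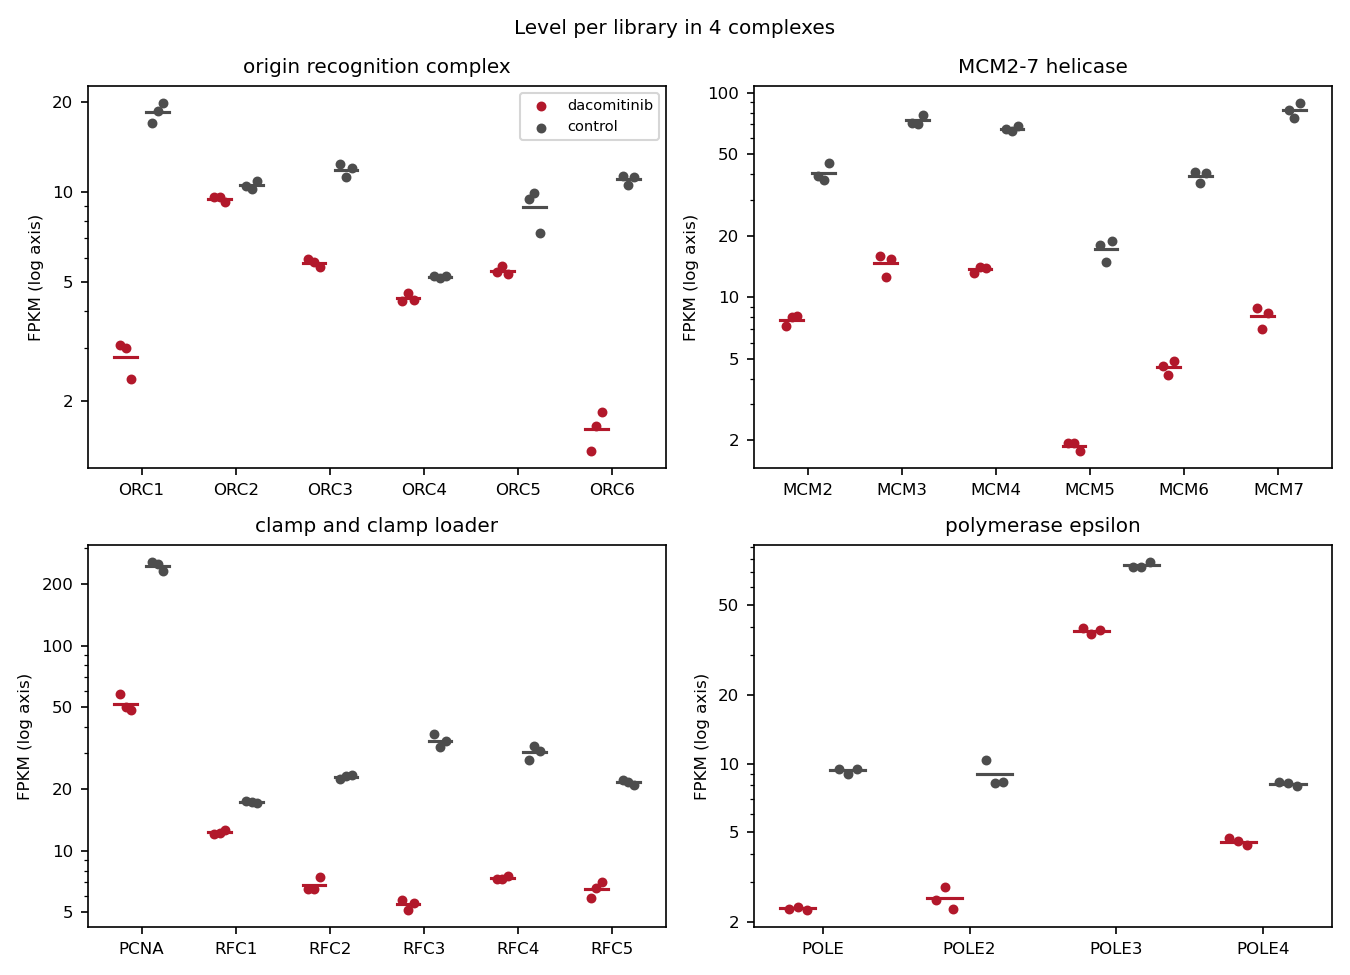
FPKM (log axis) in each library for ORC, the MCM2-7 ring, the clamp with its loader and polymerase epsilon, dacomitinib in red and control in grey, with bars at the group means. Subunits kept 9.79% to 20.5% of the control mean in the MCM2-7 ring and 14.7% to 90.3% in ORC, where ORC2 (a sign that depends on the scaling, like that of ORC4) lay closest to control.

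The factors that activate the helicase included the member with the largest difference, CDC45, but ranged from 5.46% to 52.2% of the control mean. Their median difference was -1.90, against -2.45 for the MCM2-7 ring. CDC45, which joins the MCM ring and GINS in the active helicase, had 1.18, 1.46 and 1.82 FPKM with dacomitinib, against 26.1, 25.9 and 27.3 FPKM in controls. It fell by 3.47 (SE 0.10, limma adjusted p = 1.17e-06). MCM10, needed for the helicase to start moving, had 0.855, 0.608 and 0.727 FPKM with dacomitinib and 12.8, 12.6 and 14.7 FPKM in controls, a difference of -3.05 (SE 0.09). In FPKM its fold was the largest of the 51, at 5.46% of the control mean against 5.62% for CDC45. The log2(FPKM + 1) scale understates falls to such low levels.

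The 4 subunits of GINS, the third part of the active helicase, did not fall evenly. GINS2 had 2.34, 2.14 and 1.95 FPKM with dacomitinib and 16.6, 16.8 and 16.8 FPKM in controls. GINS1, GINS2 and GINS4 kept 12.8% to 15.9% of the control mean, and GINS3, the subunit with the lowest level in controls, kept 28.8%. GINS3 had 1.35, 1.05 and 1.01 FPKM with dacomitinib, against 4.52, 3.45 and 3.85 FPKM in controls, a difference of -1.21 (SE 0.12). The kinase CDC7, which phosphorylates the MCM ring, kept 22.8%, and DBF4, its activating partner, 34.1%. The ratio of DBF4 to CDC7 was accordingly 2.01 to 2.43 with dacomitinib and 1.41 to 1.53 in controls. TOPBP1, a scaffold in origin firing that also activates the checkpoint kinase ATR, fell least of the 9, with 21.8, 21.2 and 21.7 FPKM with dacomitinib and 41.7, 41.6 and 40.8 FPKM in controls.

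In polymerase alpha-primase, which lays down the RNA-DNA primers, all 4 subunits fell and kept 20.7% to 34.4% of the control mean. The catalytic subunit POLA1 had 2.23, 2.39 and 1.73 FPKM with dacomitinib, against 9.84, 8.15 and 8.33 FPKM in controls. The primase subunit PRIM2 had 2.48, 2.05 and 1.81 FPKM with dacomitinib and 6.22, 5.40 and 6.84 FPKM in controls. PRIM1, the catalytic primase subunit, was the member whose SE was the largest (0.17). Its libraries ranged between 2.87 and 4.90 FPKM with dacomitinib and between 12.3 and 15.9 FPKM in controls, so the groups stayed apart.

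In polymerase epsilon, the leading-strand enzyme, the subunits fell in pairs. The catalytic POLE had 2.29, 2.34 and 2.26 FPKM with dacomitinib, against 9.47, 9.01 and 9.47 FPKM in controls, and fell by 1.65 (SE 0.05). POLE2, which links the enzyme to the helicase, fell by 1.49 (SE 0.11). POLE3 and POLE4, small histone-fold subunits (POLE3 also serves in a chromatin remodelling complex), kept 51.6% and 55.6% of the control mean. POLE4 had 4.67, 4.54 and 4.35 FPKM with dacomitinib and 8.27, 8.17 and 7.94 FPKM in controls. The ratio of POLE to POLE3 was 0.0574 to 0.0624 with dacomitinib and 0.123 to 0.128 in controls.

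Polymerase delta, the lagging-strand enzyme, showed a like spread among its members here, POLD1 to POLD3. Its small subunit POLD4, in the second list below, did not fall, with a mean at 108% of the control mean. The catalytic POLD1 had 3.85, 3.08 and 3.996 FPKM with dacomitinib and 12.4, 13.04 and 14.4 FPKM in controls, a difference of -1.62 (SE 0.09). POLD2, its partner subunit, fell by 1.44 (SE 0.08). POLD3, an accessory subunit that also serves in translesion synthesis, had 8.75, 8.05 and 9.09 FPKM with dacomitinib and 15.3, 16.4 and 15.9 FPKM in controls, a difference of -0.81 (SE 0.06).

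PCNA, the ring that tethers polymerases to DNA, had the highest level per length of the 51 genes in both groups. It had 57.8, 49.9 and 48.4 FPKM with dacomitinib, against 254, 249 and 230 FPKM in controls, and fell by 2.21 (SE 0.08, limma adjusted p = 2.90e-06). Among the 5 subunits of RFC, which opens and loads that ring, the small RFC2 to RFC5 kept 15.9% to 30.2% of the control mean. RFC3 fell furthest, with 5.78, 5.14 and 5.54 FPKM with dacomitinib and 37.0, 32.0 and 34.3 FPKM in controls. RFC1, the large subunit that is specific to the replicative loader, had 12.1, 12.2 and 12.6 FPKM with dacomitinib and 17.4, 17.3 and 17.03 FPKM in controls. Its difference of -0.46 (SE 0.04, adjusted p = 0.000123) was -0.17 with TPM and kept its call there. The ratio of RFC3 to RFC1 was 0.421 to 0.479 with dacomitinib and 1.85 to 2.13 in controls. Per length, RFC1 had the lowest level of the 5 in every control library and the highest in every dacomitinib library. In summed fragments RFC1 was the highest in both groups (4191 with dacomitinib, 5131 in controls).

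RPA, which coats single-stranded DNA in replication and in repair, fell the most evenly. RPA1, RPA2 and RPA3 kept 47.8%, 52.2% and 41.1% of the control mean. RPA1 had 27.3, 25.5 and 26.4 FPKM with dacomitinib, against 55.4, 54.1 and 56.3 FPKM in controls. RPA3 had 9.49, 9.42 and 9.39 FPKM with dacomitinib and 23.3, 24.3 and 21.2 FPKM in controls. Their sum was 50.3 to 53.0 FPKM with dacomitinib and 107 to 110 FPKM in controls.

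Of the enzymes that finish Okazaki fragments, FEN1, the flap endonuclease, had 7.14, 6.64 and 7.67 FPKM with dacomitinib, against 48.7, 48.0 and 51.4 FPKM in controls, a difference of -2.63 (SE 0.06). LIG1, the ligase that seals the nicks, had 3.43, 2.48 and 3.97 FPKM with dacomitinib and 11.7, 10.7 and 11.7 FPKM in controls, a difference of -1.54 (SE 0.13). RNASEH2A, the catalytic subunit of the enzyme that removes RNA from DNA, was too low to be tested, with 7 fragments in the dacomitinib libraries together and 65 in the controls. It had 0.0656, 0.0331 and 0.0158 FPKM with dacomitinib and 0.329, 0.445 and 0.429 FPKM in controls, and without the expression limit it was called lower (-0.43, SE 0.06, limma adjusted p = 0.00388). In GENCODE release 29, 30.8% of its exonic bases overlap another gene, THSD8. Exonic overlap also exceeded 20% for POLA2 (35.1%), MCM2 (23.6%), GINS4 (23.6%), PRIM1 (21.6%) and TIPIN (21.0%). As no strand or overlap setting is given for the counting, their levels are less certain.

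At the fork, CLSPN, the adaptor through which ATR activates CHEK1, had 0.762, 0.691 and 0.701 FPKM with dacomitinib, against 10.6, 10.0 and 11.0 FPKM in controls. Its difference of -2.75 (SE 0.07, limma adjusted p = 7.93e-07) left 6.80% of the control mean. WDHD1, which ties polymerase alpha to the helicase, kept 22.5%. TIMELESS and TIPIN, a pair that holds stalled forks together, kept 30.5% and 30.7%, nearly the same share. TIPIN had 2.63, 3.28 and 2.38 FPKM with dacomitinib and 9.51, 8.31 and 9.18 FPKM in controls.

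A second list, also chosen with earlier results of these data known, held 40 other genes of replication. Of the 39 tested, 32 were called lower, 1 higher and 6 neither, with a median difference of -0.98; over all 13748 tested genes 34.8% were called lower and 25.4% higher. The list's UHRF1, TICRR and CHAF1B averaged below 1 FPKM with dacomitinib and so passed the expression limit only through the controls. With TPM, 30 of the list were called lower, and ASF1A (adjusted p = 0.0554) and CHTF8 (adjusted p = 0.311) lost their calls; CHTF8 also did with quantile normalization (adjusted p = 0.0998). All 8 replication-coupled chromatin factors were called lower, ASF1A not with TPM. The largest falls in fitted value were those of UHRF1, which recruits DNA methyltransferase to new DNA, at 0.833 ± 0.155 FPKM with dacomitinib and 16.4 ± 1.43 FPKM in controls, and of ASF1B, a histone chaperone, at 4.52 ± 1.05 FPKM with dacomitinib and 41.1 ± 1.89 FPKM in controls (SD, n = 3). Of 10 origin and helicase factors 9 fell, with RECQL4 at -2.51 (SE 0.08) and TICRR, which works with TOPBP1 in origin firing, at -2.23 (SE 0.12). MCM9, a helicase of repair, was not called (-0.15, SE 0.11), though its lowest limma adjusted p among the alternatives was 0.0490.

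Of 14 tested fork, loader and maturation genes 11 were called lower, furthest DSCC1, of an alternative clamp loader, at -2.79 (SE 0.11), and DTL, which directs CDT1 to destruction, at -2.63 (SE 0.06). POLD4, the small subunit of polymerase delta, was at 2.61 ± 0.324 FPKM with dacomitinib and 2.43 ± 0.149 FPKM in controls and was not called, and neither were RNASEH2B and ETAA1. POLD4 was called higher with TPM (adjusted p = 0.0447), and ETAA1 with TPM (adjusted p = 0.0133) and voom (adjusted p = 0.0139). RNASEH2B went the other way: it was not called under 12 alternatives but was called lower under others (lowest limma adjusted p = 0.00649). RTEL1 was below the expression limit. Of 7 checkpoint genes, CHEK1 (-1.50, SE 0.06), ATR (-0.81, SE 0.05), ATRIP and RAD1 fell. RAD9A, a subunit of the checkpoint clamp, rose, with 9.35 ± 0.370 FPKM with dacomitinib and 7.05 ± 0.841 FPKM in controls (0.37, SE 0.08, limma adjusted p = 0.00778), a call kept under every alternative. HUS1, of the same clamp, and RAD17, of its loader, were not called, but both were called higher with TPM and with voom, and RAD17 also with quantile normalization (adjusted p = 0.0233). HUS1 was also called higher when dacomitinib replicate 1 was left out.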

How the data were processed

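RNA was measured by sequencing in 3 dacomitinib and 3 control samples of HaCaT cells. The authors deposited FPKM per gene for 6 columns. Per the submitters' processing notes, the tools were featureCounts, HISAT2, fastp, CASAVA and DESeq2 (1.20.0) and the build was GRCh38; what each did is not stated there. The deposited FPKM times the deposited gene length came out as whole multiples of 1 fragment for 100% of values within a tolerance of 0.01, which gave fragments per gene and library. The total by which the authors divided was 1.07 ± 0.0244 times the fragment sum with dacomitinib and 0.952 ± 0.00449 times in controls (SD, n = 3), so libraries had been scaled against each other before deposit, in a way the labels do not state. Median ratio size factors computed from the deposited FPKM were 1.01 in all 6 libraries, so the values already carry a scaling equal to that one.

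Because FPKM is not a count, the values were tested as log2(FPKM + 1) with limma (3.58.1, R 4.3.3) with its trend option, two-sided, with Benjamini-Hochberg adjustment over the 13748 genes that averaged 1 FPKM or more. The script was tested on simulated data. The members and lists were chosen with earlier results of these data known. All 51 members could be named, and of the second list up to 2 genes with the largest fall and rise per group, and groups of 5 or fewer. Alternatives were other pseudocounts, filters, scalings, limma without trend, voom on the fragments, a replicate block and leaving out each library. Ratios between members other than CDT1 to GMNN, and the promoters printed, were chosen after their values were seen and carry no test. Gene coordinates are those of the deposited table, and promoter coordinates are those of the RefSeq windows. RefSeq promoters were read on the gene's strand. To check orientation, a short stretch just after the start site was sought in GENCODE release 29 transcripts of the gene. It was found for 52 of the 58 windows in that orientation and for 0 in the other. The bases before the start site were not checked this way.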

Additional observations from a re-analysis of the deposited data

How the results depend on the processing

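For 48 of the 50 tested members, direction and call were the same under all 16 alternatives, or all that tested the gene (45 members were tested with a filter of 5 FPKM). The exceptions were ORC2 and ORC4. Median ratio scaling, 1 of the 16, could change nothing, because its factor was 1.01 in all 6 libraries. Members not called, 0 as reported, numbered 1 without a filter and with limma without trend, 2 with TPM, quantile normalization, voom and the replicate block, and 1 to 2 when a library was left out. ORC2 turned to 0.17 with TPM, 0.0396 with quantile normalization and 0.0234 with voom, and ORC4 to 0.0769 with TPM; these settings all replace the authors' scaling, and the cause was not tested further here or for the counts below. The members' median, -1.62 as reported, was -1.86 and -1.73 at pseudocounts of 0.1 and 0.5, -1.52 with TPM, -1.51 with quantile normalization, -1.71 with voom and -1.65 to -1.61 when a library was left out.

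Of all tested genes, 4778 were called lower and 3493 higher as reported, 2721 lower and 5779 higher with TPM, and 1946 higher with the filter of 5 FPKM, under which fewer genes are tested. In the second list, genes called higher, 1 as reported, were 5 with TPM, 2 with quantile normalization, 4 with voom and 1 to 2 when a library was left out, and genes not called, 6 as reported, were 3 with that filter and 2 with voom. The log2 ratio of CDT1 to GMNN, 0.53 as reported, was 0.46 to 0.64 when a library was left out. Its exact permutation p was 0.2 without control replicate 2 and 0.1 under each other omission.

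The replicate numbers of the treated columns only name them, and deviations of same-numbered libraries from their group means correlated at 0.03, -0.02 and 0.04 across genes, so they do not pair the libraries. With the replicate block 48 members were lower and 2, ORC2 (adjusted p = 0.0937) and ORC4 (adjusted p = 0.0513), were not called. Depth limits RNASEH2A, with 7 and 65 fragments per group of 3 libraries; 197 (CLSPN) or more fragments stood behind each tested member in the dacomitinib libraries.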

Other observations

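The members lie on 20 chromosomes. Pseudogenes named after 7 of them, 11 in all, were listed at no more than 0.272 FPKM (PCNAP3 in a control library), far below their parent genes. MCM10, CLSPN and POLA2 were the 3 tested members whose mean FPKM with dacomitinib lay below 1, so they passed the expression limit through the control libraries.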
